A study of Gallus gallus with 6 samples.

Results

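Matrix metalloproteinases (MMPs), ADAM and ADAMTS proteases and their tissue inhibitors (TIMPs) were examined in RNA sequencing of chicken primary myoblasts, the muscle precursor cells of leg muscle grown in culture. Members were all genes of the deposited expression table whose symbol begins with MMP, TIMP or ADAM and a digit, or with ADAMTS, which gave 55 of 24433 genes: 15 MMPs, 3 TIMPs, 15 ADAMs, 17 ADAMTS proteases and 5 ADAMTS-like proteins. Membership was decided by gene symbol. The study compared 3 libraries of myoblasts that overexpressed ANKRD9, an ankyrin repeat protein known as a substrate receptor of cullin ubiquitin ligases, with 3 libraries of myoblasts that carried the empty expression vector pcDNA3.1. Libraries of both groups were made from polyadenylated RNA; the sources used here do not give the breed or age of the birds, how the vector was introduced or the time to harvest.

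Metalloproteinases cut proteins with a zinc ion in their active site. Most MMPs are secreted as inactive proenzymes and cut collagens, gelatin, laminin and other matrix proteins, while membrane-type MMPs act at the cell surface. ADAMs sit in the membrane and shed the outer parts of growth factors, Notch ligands and adhesion molecules. ADAMTS proteases are secreted and act on proteoglycans and procollagens, and ADAMTS-like proteins share their binding domains but have no protease domain. TIMPs bind the active site of MMPs and, for TIMP3, also that of several ADAMs and ADAMTS proteases. In muscle, these enzymes are known for remodelling the matrix through which myoblasts migrate and fuse.

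The recovered depth was between 16158627 and 26310089 reads per library, of which 0.513% to 0.538% fell on the 55 genes. Mitochondrial genes took 0.438% to 0.549% of reads with ANKRD9 and 0.316% to 0.374% in the controls, without overlap, and the part of this difference in the results was not tested. ANKRD9 itself stood at 98.7 ± 7.26 FPKM (fragments per kilobase of transcript and per megafragment sequenced, SD, n = 3) with the construct and 9.24 ± 0.984 FPKM with the empty vector (exact two-sided permutation test p = 0.1, the smallest that 3 against 3 allows). The myogenic genes MYOD1, MYF5, MYOG, DES and PAX7 were all present, at group means from 24.0 to 370.2 FPKM. They also differed between the groups: of 12 myoblast markers tested, 4 were lower and 3 higher with ANKRD9 (limma, adjusted p under 0.05). The shares over all genes tested were 19.8% lower and 16.3% higher. Among the myoblast markers MYOD1 fell 1.72-fold, MSTN, the growth inhibitor myostatin, 2.86-fold and PAX7 1.22-fold, while MYF5, DES and MYF6 rose 1.25-fold, 1.26-fold and 1.23-fold. The part of these differences in the results on metalloproteinases was not tested. Fibroblast markers were present too: all 12 listed were in the table, and their summed level was 1793 to 1941 FPKM with ANKRD9 and 2199 to 2250 FPKM in the controls. Leukocyte markers summed to 259 to 272 FPKM with ANKRD9 and 213 to 242 FPKM in the controls over 16 genes, the protease gene CTSS alone contributing means of 159.9 and 143.6 FPKM. In bulk RNA, fewer cells of a type and less RNA per cell cannot be told apart. The labels do not tie the libraries of a group to separate cultures, so p-values measure the spread between these libraries, which may be technical.

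A gene was tested when its mean over the 6 libraries reached 1 FPKM, which 39 of the 55 members did. The family moved in both directions. With ANKRD9, 6 members were higher, 11 were lower and 22 did not pass (limma on log2(FPKM + 1), Benjamini-Hochberg over all 11685 genes tested, adjusted p under 0.05). The 17 calls were 43.6% of the members tested, and over all genes 36% were called, 16.3% higher and 19.8% lower. The values of the groups did not overlap for 23 members, or 59.0%, beside 50.6% of all genes. The median log2 difference was -0.03 over the members and -0.01 over all genes tested. Calls with a log2 difference of at least 0.5 in size were 5 of 39, or 12.8%, against 5.46% of all genes: MMP9, ADAMTS1 and ADAMTS15 upward, MMP2 and MMP27 downward.

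**Figure D1:**
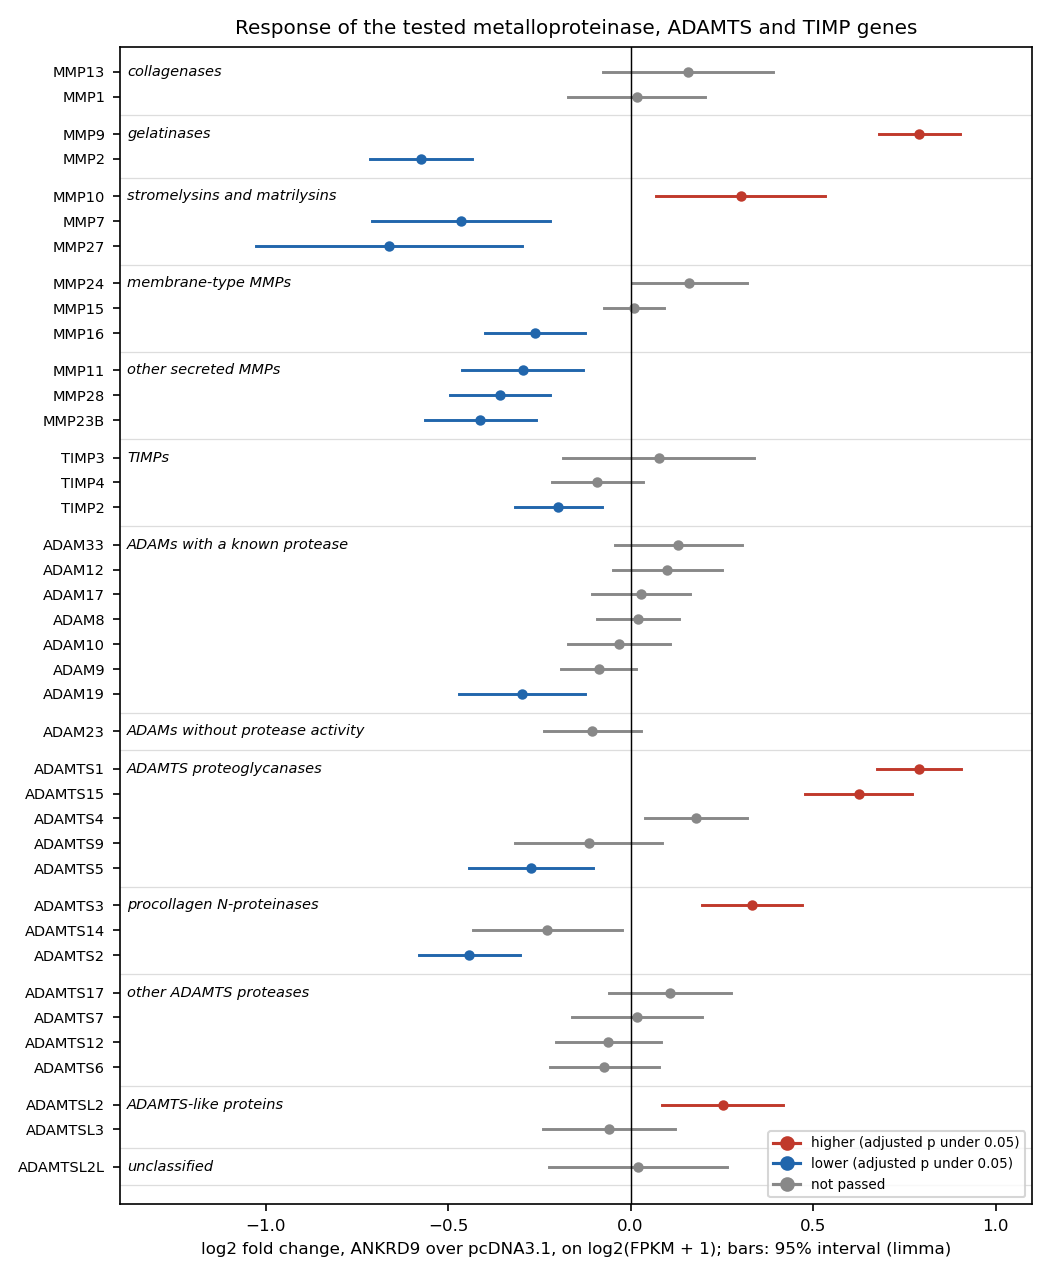
Log2 fold change of the 39 tested members, ANKRD9 over pcDNA3.1 on the log2(FPKM + 1) scale, with the 95% interval of limma (n = 3 libraries a group), by class of protein. MMP9 and ADAMTS1 lie farthest to the right at 0.79, MMP27 and MMP2 farthest to the left at -0.66 and -0.58, and most ADAMs lie near 0.

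Levels per gene length spanned a wide range. In the control cells TIMP2 was the highest at 913 FPKM, followed by MMP2 at 268, TIMP3 at 202, ADAM8 at 158, MMP7 at 133, MMP15 at 109, MMP9 at 90.3 and ADAMTSL2 at 88.4 FPKM. The library ranges of neighbours in this order were separate down to MMP15 and MMP9, and those of MMP9 and ADAMTSL2 overlapped. Next came TIMP4 at 36.3, ADAM10 at 33.5, MMP28 at 31.9 and ADAM17 at 29.7 FPKM, each overlapping the next in its range. Of the summed MMP level, MMP2, MMP9, MMP7 and MMP15 made up 88.7% ± 0.374 in the controls and 89.2% ± 0.189 with ANKRD9 (SD, n = 3 each). Replicates of a tested member had a median coefficient of variation of 5.59%, and counting error alone would give a median of 2.72%.

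**Figure D2:**
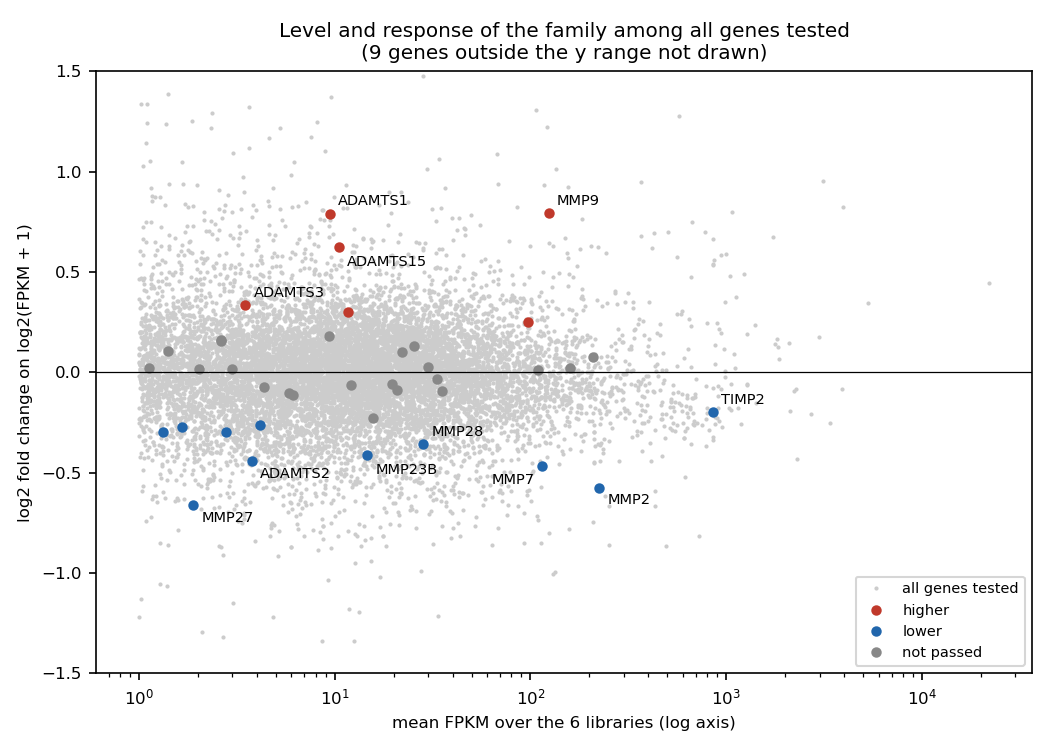
Mean FPKM over the 6 libraries (log axis) against the log2 fold change on log2(FPKM + 1) for all 11685 genes tested (grey dots) and the 39 members (larger points, coloured by call); 9 genes lie outside the drawn range. The members that rose or fell are spread over levels from TIMP2, the highest, to genes just above the 1 FPKM limit.

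The gelatinases, which cut denatured collagen and basement membrane collagen, moved in opposite directions. MMP2 (chromosome 11: 3706910-3741617, minus strand, build GRCg6a, as for all positions here) stood at 166, 180 and 194 FPKM in ANKRD9 libraries 1 to 3 and at 275, 261 and 269 FPKM in control libraries 1 to 3. All 3 ANKRD9 values lay below all control values, and the mean was 1.49-fold lower, a log2 fall by 0.58 ± 0.06 (SE; limma, adjusted p = 5.85e-04). MMP9 (chromosome 20: 10572564-10576650, plus strand) stood at 162, 151 and 158 FPKM with ANKRD9 and at 86.8, 95.1 and 89.1 FPKM in the controls. The groups were again separate, and the rise was 1.74-fold, 0.79 ± 0.05 on the log2 scale (SE; limma, adjusted p = 1.11e-04). The ratio of MMP9 to MMP2 within a library therefore went from 0.316, 0.364 and 0.332 in the controls to 0.978, 0.838 and 0.815 with ANKRD9. The sum of both genes changed less, from 358 ± 2.77 to 337 ± 12.9 FPKM (SD, n = 3 each).

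MMP9 is also a gene of leukocytes and MMP2 one of fibroblasts, and markers of both cell types differed between the groups. Among 12 leukocyte markers tested, 5 were higher and 1 lower with ANKRD9, beside 16.3% higher and 19.8% lower over all genes tested. NCF1, a subunit of the phagocyte oxidase, rose 1.72-fold, and PTPRC, the pan-leukocyte gene of CD45, stood at 2.18 and 1.75 FPKM and did not pass (limma, adjusted p = 0.122). No leukocyte marker in the table was at 0. Among 11 fibroblast markers tested, 8 were lower and 2 higher, with TCF21 near 0; PDGFRA fell 1.61-fold, while POSTN rose 1.27-fold. Other marker lists differed too. Among 5 endothelial markers tested, 1 was higher and 2 lower, and among 4 adipocyte markers 2 were higher and 1 lower. The part of fibroblasts and leukocytes in the MMP2 and MMP9 results was not tested.

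MMP7, a matrilysin, which lacks the hemopexin domain of most MMPs, was grouped with the stromelysins MMP3 and MMP10 and with MMP27. Matrilysins and stromelysins cut proteoglycans, laminin and fibronectin and can activate other proMMPs. MMP7 (chromosome 1: 183873195-183877555, plus strand) stood at 105, 84.4 and 98.5 FPKM with ANKRD9 and at 115, 137 and 146 FPKM in the controls. The groups did not overlap, although ANKRD9 library 1 and control library 1 came close, and the fall was 1.39-fold (0.46 ± 0.10 on the log2 scale, SE; limma, adjusted p = 0.0122). MMP27 fell 2.10-fold from a low level: 1.27, 1.29 and 1.12 FPKM with ANKRD9 and 1.69, 3.096 and 2.93 FPKM in the controls, on 33 to 111 reads a library. Control library 1 was the lowest of its group for both genes. The MMP27 call (limma, adjusted p = 0.0147) was lost without control library 3 (adjusted p = 0.0515). MMP10 went the other way, at 14.3, 11.9 and 12.7 FPKM with ANKRD9 and 8.84, 11.3 and 11.0 FPKM in the controls. Its 1.25-fold rise passed narrowly (limma, adjusted p = 0.0484) and was lost in 9 of 16 other settings. These included leaving out any single library other than control library 2 (adjusted p from 0.0575 to 0.144) and TMM scaling (adjusted p = 0.0524). MMP3, another stromelysin, had 2 reads in ANKRD9 library 3 and 0 in the other 5 libraries, where 3 reads, the limit that a count of 0 allows, would be 0.0995 to 0.162 FPKM.

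The collagenases MMP1 and MMP13, which cut fibrillar collagen, were scarce. MMP13 stood at 2.82 ± 0.250 FPKM with ANKRD9 and 2.43 ± 0.415 FPKM in the controls, and MMP1 at 2.05 ± 0.0418 and 2.02 ± 0.254 FPKM (SD, n = 3 each). Neither passed (limma, adjusted p = 0.252 and 0.890), and the 95% intervals of the log2 difference ran from -0.07 to 0.39 for MMP13 and from -0.17 to 0.20 for MMP1.

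MMP13, MMP10, MMP3, MMP1, MMP27 and MMP7 lie in this order within 146.4 kb of chromosome 1 (183731120-183877555), all on the plus strand. Gaps between neighbours ran from 4.50 kb, between MMP1 and MMP27, to 60.9 kb, between MMP27 and MMP7. Within this cluster MMP10 was higher, MMP27 and MMP7 were lower, MMP13 and MMP1 did not pass, and MMP3 was under the limit for testing. MMP10 and MMP7, the members of the cluster with most reads, had a ratio of 0.0766, 0.0824 and 0.0754 in the controls and 0.137, 0.141 and 0.129 with ANKRD9. These genes are related in sequence, and how reads that match more than one of them were assigned is not given in the sources used here.

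**Figure D3:**
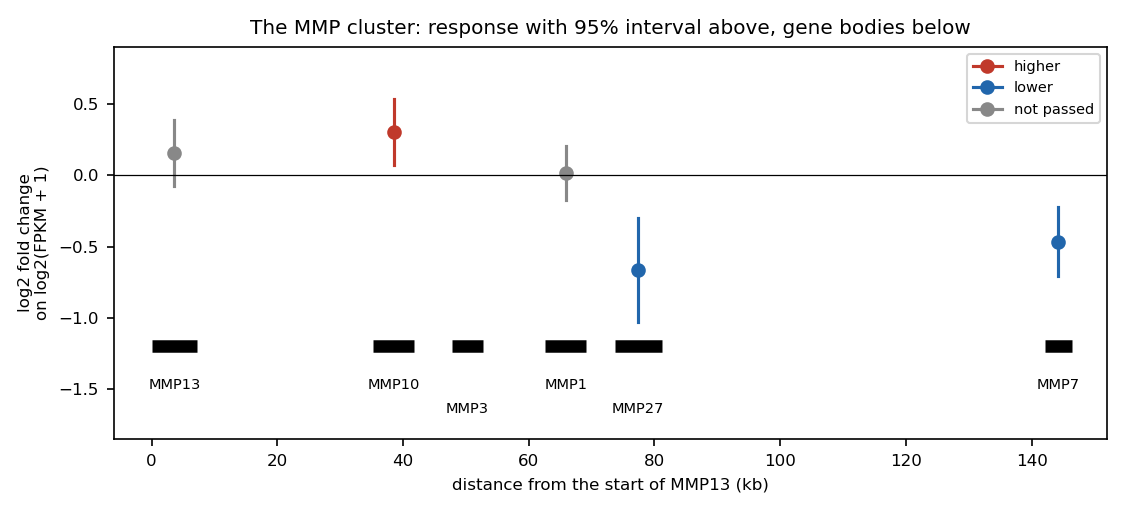
Genes of the MMP cluster by distance from the start of MMP13 in kb (black bars, lower part) and their log2 fold change on log2(FPKM + 1) with 95% intervals (points and lines, upper part). MMP10 lies above 0, MMP27 and MMP7 below it, and MMP13 and MMP1 have intervals that include 0; MMP3 was not tested.

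MMP28, MMP23B and MMP11, the remaining MMPs, labelled here as other secreted MMPs, were lower. The label is a grouping of convenience and does not state how each protein leaves the cell. MMP28 (epilysin; chromosome 19: 4516754-4526570) stood at 24.1, 23.4 and 26.7 FPKM with ANKRD9 and 31.3, 31.0 and 33.5 FPKM in the controls, a 1.29-fold fall (limma, adjusted p = 0.00352). MMP23B (chromosome 21: 2032639-2043774), which the newer chicken annotation GRCg7b lists as MMP23A, stood at 13.04, 11.7 and 12.5 FPKM against 15.8, 16.4 and 18.4 FPKM, a 1.36-fold fall (limma, adjusted p = 0.00314). MMP11, also called stromelysin-3 and cut by furin inside the cell, stood at 2.67, 2.18 and 2.40 FPKM against 3.18, 3.22 and 3.16 FPKM. All 3 genes had separate groups of values, as did 50.6% of all genes tested. The call of MMP11 (adjusted p = 0.0158) was lost without ANKRD9 library 2 (adjusted p = 0.0564).

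Of the membrane-type MMPs, MMP15 was abundant and did not pass (limma, adjusted p = 0.851). Its level was 110 ± 1.33 FPKM with ANKRD9 and 109 ± 2.36 FPKM in the controls (SD, n = 3 each), with a 95% interval of the log2 difference from -0.07 to 0.09. MMP16 (chromosome 2: 123570468-123745998), which can activate proMMP2 at the cell surface, fell 1.25-fold, from 4.70, 4.49 and 4.61 to 3.51, 3.91 and 3.60 FPKM (limma, adjusted p = 0.0116). MMP24 stood at 2.83 ± 0.199 and 2.43 ± 0.0946 FPKM and did not pass (limma, adjusted p = 0.102). MMP24 overlaps EIF6 on the opposite strand, which had 626% of its reads, and the library kit does not mark strand. The value of MMP24 is therefore uncertain. EIF6 stood at 38.2 FPKM with ANKRD9 and 44.3 FPKM in the controls. No gene of the table carried the symbol of MMP14, the best known activator of proMMP2, so MMP14 was not analysed here.

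Among the inhibitors, TIMP2 was lower, and TIMP3 and TIMP4 did not pass. TIMP2 (chromosome 18: 9760920-9767871, plus strand), which inhibits MMPs and also takes part in the activation of proMMP2, stood at 772, 781 and 834 FPKM with ANKRD9 and at 903, 948 and 888 FPKM in the controls. The groups were separate and the fall was 1.15-fold (0.20 ± 0.05 on the log2 scale, SE; limma, adjusted p = 0.0201). The TIMP2 call was lost in 5 of 16 other settings. These included leaving out ANKRD9 library 1 or 2 (adjusted p = 0.0790 and 0.0928) and quantile normalization (adjusted p = 0.0565). TIMP3, which binds to the matrix, spread widely: 185, 215 and 239 FPKM with ANKRD9 and 230, 193 and 182 FPKM in the controls, so that the groups overlapped (95% interval of the log2 difference -0.19 to 0.34). TIMP4 stood at 34.0 ± 1.56 and 36.3 ± 1.94 FPKM (limma, adjusted p = 0.217).

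Summed over each family, MMPs stood at 608 ± 21.2 FPKM with ANKRD9 and 677 ± 16.2 FPKM in the controls, and TIMPs at 1043 ± 58.0 and 1151 ± 37.4 FPKM (SD, n = 3 each). The ratio of summed MMP to summed TIMP was 0.614, 0.570 and 0.568 with ANKRD9 and 0.565, 0.578 and 0.623 in the controls, and the groups overlapped. These sums cover only genes named in the table, where no gene carried the symbol of MMP14 or TIMP1. The make-up of the MMP sum differed more than its size. MMP2 made up 39.6% ± 1.79 of it in the controls and 29.6% ± 2.10 with ANKRD9, and MMP9 made up 13.3% ± 0.559 and 25.8% ± 0.727.

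**Figure D4:**
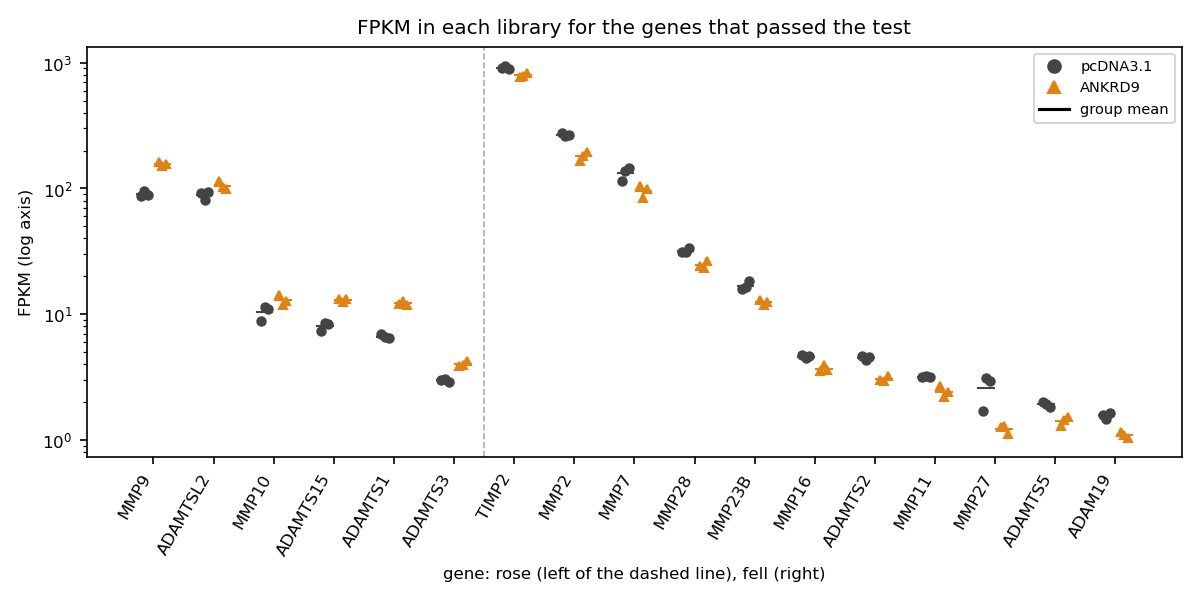
FPKM (log axis) in each of the 6 libraries for the 17 members that passed the test, those that rose to the left of the dashed line and those that fell to the right. Circles are pcDNA3.1 libraries, triangles ANKRD9 libraries and short lines group means. The groups are separate for each of the 17 genes, narrowly so for MMP10, TIMP2, ADAMTSL2 and MMP7. The genes were picked by a test on these same values, so the separation is a description. Of all genes tested, 50.6% had separate groups.

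ADAMTS proteoglycanases, which cut versican and aggrecan, included the largest rises beside MMP9. ADAMTS1 (chromosome 1: 104338321-104345974, minus strand) stood at 12.1, 12.7 and 11.9 FPKM with ANKRD9 and at 6.92, 6.54 and 6.45 FPKM in the controls. That is a 1.84-fold rise, 0.79 ± 0.05 on the log2 scale (SE; limma, adjusted p = 1.16e-04), and the ANKRD9 values were far above the control range. ADAMTS15 (chromosome 24: 1706164-1717898, plus strand) stood at 13.2, 12.4 and 13.2 FPKM against 7.29, 8.44 and 8.38 FPKM, a 1.61-fold rise (limma, adjusted p = 5.08e-04). ADAMTS4 stood at 9.93 ± 0.201 and 8.67 ± 0.669 FPKM and just missed the threshold (limma, adjusted p = 0.0517). It passed in 4 of 16 other settings, with adjusted p from 0.0290 to 0.0458. ADAMTS4 overlaps LOC100858962 on the opposite strand, which had 65.3% of its reads. LOC100858962 stood at 12.2 FPKM with ANKRD9 and 10.4 FPKM in the controls. As the library kit does not mark strand, the value of ADAMTS4 is uncertain. ADAMTS9, which also cuts versican, did not pass, at 5.83 ± 0.221 and 6.43 ± 0.885 FPKM.

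ADAMTS5, the main aggrecan-cutting enzyme of mouse cartilage, was lower. It stood at 1.29, 1.43 and 1.51 FPKM with ANKRD9 and at 1.99, 1.92 and 1.84 FPKM in the controls, a 1.35-fold fall (limma, adjusted p = 0.0228). Although its groups were separate, this call was lost without any single library other than ANKRD9 library 3 (adjusted p from 0.0505 to 0.0732). ADAMTS5 (chromosome 1: 104373266-104419335, minus strand) lies next to ADAMTS1 with a gap of 27.3 kb and no other gene of the table between them. Their ratio, ADAMTS1 to ADAMTS5, was 3.49, 3.41 and 3.50 in the controls and 9.33, 8.83 and 7.86 with ANKRD9. The other neighbouring pair, ADAMTS15 and ADAMTS8, lies head to head on opposite strands with 3.24 kb between the genes, and ADAMTS8 stood at only 0.197 ± 0.0337 and 0.210 ± 0.0497 FPKM. The summed level of the 7 proteoglycanase genes was 42.5 to 42.9 FPKM with ANKRD9 and 32.1 to 32.3 FPKM in the controls. It includes ADAMTS4, whose value is uncertain, and of its genes only ADAMTS1 and ADAMTS15 passed as higher. The SD of the sum, 0.243 and 0.0853 FPKM, was below that of ADAMTS1 alone, 0.395 and 0.251 FPKM. The narrow ranges therefore rest on deviations that cancel between genes and do not measure precision.

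The procollagen N-proteinases, which remove the amino-terminal propeptide of fibrillar procollagens, also split. ADAMTS2 (chromosome 13: 14366219-14536808, plus strand), the enzyme of type I procollagen in skin, stood at 3.01, 2.95 and 3.21 FPKM with ANKRD9 and at 4.64, 4.29 and 4.59 FPKM in the controls. It fell 1.48-fold, by 0.44 ± 0.06 on the log2 scale (SE; limma, adjusted p = 0.00166). ADAMTS3 (chromosome 4: 50472656-50604643, minus strand), known in mouse for activating the lymphatic growth factor VEGFC, stood at 3.88, 3.91 and 4.23 FPKM against 2.98, 3.04 and 2.90 FPKM. It rose 1.35-fold, by 0.33 ± 0.06 (SE; limma, adjusted p = 0.00475). ADAMTS14 stood at 14.3, 13.6 and 15.2 FPKM against 19.7, 15.7 and 15.9 FPKM and did not pass (limma, adjusted p = 0.0784); control library 1 was high. The ratio of ADAMTS3 to ADAMTS2 was 0.642, 0.707 and 0.631 in the controls and 1.29, 1.33 and 1.32 with ANKRD9.

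**Figure D5:**
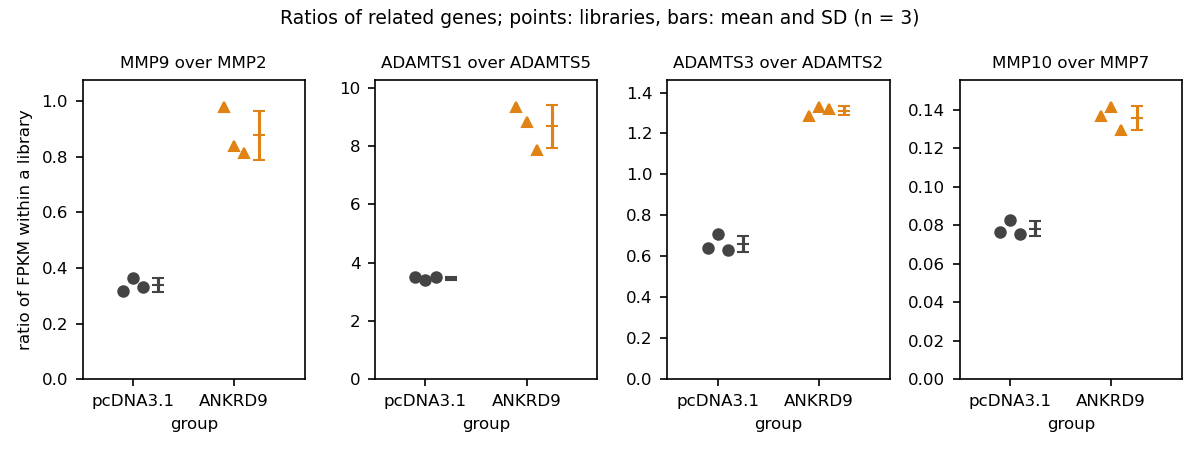
Ratio of FPKM of related genes within each library, by group; points are libraries and bars the mean and SD (n = 3). Each ratio is higher in all ANKRD9 libraries than in any control library: MMP9 over MMP2 at 0.815 to 0.978 against 0.316 to 0.364, and ADAMTS3 over ADAMTS2 at 1.29 to 1.33 against 0.631 to 0.707. The pairs were chosen after their values were seen, so the ratios are a description.

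No other ADAMTS protease passed. ADAMTS12, which cuts the cartilage protein COMP, stood at 11.8 ± 0.760 and 12.3 ± 0.679 FPKM. ADAMTS7, its close relative, stood at 3.00 ± 0.141 and 2.96 ± 0.317 FPKM. ADAMTS6 was at 4.20 ± 0.194 and 4.47 ± 0.316 FPKM, and ADAMTS17 at 1.49 ± 0.0677 and 1.31 ± 0.0653 FPKM (SD, n = 3 each; limma, adjusted p from 0.274 to 0.875 over the 4 genes). Of the ADAMTS-like proteins, ADAMTSL2 (chromosome 17: 7270564-7292592, plus strand), which binds fibrillin microfibrils, stood at 114, 103 and 99.6 FPKM with ANKRD9 and 91.6, 80.5 and 93.0 FPKM in the controls. The 1.19-fold rise (limma, adjusted p = 0.0281) was lost in 4 of 16 other settings. These included leaving out ANKRD9 library 1 or 2 or control library 2 (adjusted p from 0.0620 to 0.0862). ADAMTSL3 stood at 19.2 ± 1.59 and 20.1 ± 1.72 FPKM, and ADAMTSL2L at 1.15 ± 0.272 and 1.11 ± 0.0656 FPKM. Neither passed. ADAMTSL2L overlaps TOR1AIP2 on the same strand, which had 585% of its reads, so the value of ADAMTSL2L is uncertain.

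Of the 8 ADAM genes tested, 1 was lower and 7 did not pass. ADAM8, a protease known from leukocytes and regenerating tissue, was the most abundant at 160 ± 5.04 FPKM with ANKRD9 and 158 ± 7.78 FPKM in the controls (95% interval of the log2 difference -0.09 to 0.13). ADAM10, which starts ligand-induced Notch cleavage, stood at 32.8 ± 1.88 and 33.5 ± 2.11 FPKM (interval -0.17 to 0.11). ADAM17, the sheddase of TNF and of several EGF receptor ligands, stood at 30.2 ± 0.961 and 29.7 ± 2.15 FPKM (interval -0.11 to 0.16). ADAM17 overlaps IAH1 on the opposite strand, which had 20.6% of its reads.

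ADAM12, an ADAM of forming and regenerating muscle in mouse, stood at 22.8 ± 0.881 and 21.2 ± 1.77 FPKM (limma, adjusted p = 0.258). ADAM9 was at 20.2 ± 0.521 and 21.5 ± 0.777 FPKM and ADAM33 at 26.8 ± 2.89 and 24.3 ± 0.773 FPKM (limma, adjusted p = 0.155 and 0.208). ADAM33 passed without ANKRD9 library 1 (adjusted p = 0.0454). ADAM23, which has no protease activity and binds integrins, was at 5.58 ± 0.359 and 6.07 ± 0.0741 FPKM and did not pass. ADAM19, a sheddase of neuregulin in mouse, fell 1.44-fold, from 1.58, 1.47 and 1.65 to 1.15, 1.09 and 1.03 FPKM (limma, adjusted p = 0.0181). On 48 to 94 reads a library, its call was lost without ANKRD9 library 2 or 3 or control library 3 (adjusted p from 0.0534 to 0.0636).

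The other 16 members were under 1 FPKM and were not tested in the main comparison. ADAM22, ADAMTS13, ADAMTSL5 and ADAM9L had means over all libraries of 0.920, 0.760, 0.694 and 0.573 FPKM. ADAM28, ADAMTS20, MMP17, ADAM5P, ADAMTS8, ADAMTSL1 and ADAMTS18 lay between 0.150 and 0.300 FPKM. ADAM11 and ADAMTS19 were at 0.0865 and 0.0689 FPKM, and ADAM20, MMP3 and ADAM15 had 9, 2 and 2 reads in all 6 libraries. ADAM22, at 0.920 FPKM, was just under the limit for testing and ADAMTSL2L, at 1.13 FPKM, just over it. ADAM5P, a gene annotated as protein coding but described as a pseudogene, is listed as ADAM9L in GRCg7b. It was the only one of the 16 to pass when all genes with any read were tested (limma, adjusted p = 0.0382). Over all 20743 genes in that fit, 16.96% were called in either direction. That share includes the genes above 1 FPKM. The share among genes under 1 FPKM alone was not computed, so the single call among the 16 has no matching background. ADAM5P had 66 reads over the ANKRD9 libraries and 30 over the controls. The genes named ADAM9L, ADAM28 and ADAM20 here are listed in GRCg7b as ADAM32L1, ADAMDEC1 and ADAM20L. A gene outside the naming rule, LOC107050086, is described in the table as ADAM15-like and stood at 16.8 ± 0.744 and 16.0 ± 0.786 FPKM; it was singled out after its values were seen.

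Partners of the family were read from lists of activators, other inhibitors and substrates. Of 12 activator genes tested, 5 were higher and 2 lower, with a median log2 difference of 0.09, and over all genes 16.3% were higher and 19.8% lower. PLAU, the urokinase that makes plasmin and so activates several proMMPs, stood at 15.3 ± 0.768 FPKM with ANKRD9 and 10.3 ± 0.383 FPKM in the controls (SD, n = 3 each), a 1.48-fold rise (limma, adjusted p = 4.85e-04). TSPAN15, a tetraspanin that binds ADAM10, rose 1.90-fold to 3.84 FPKM, and RHBDF2 and RHBDF1, the iRhoms that bring ADAM17 to the surface, rose 1.21-fold and 1.18-fold. TSPAN14 and BSG, an inducer of MMPs, were lower.

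Of 8 genes listed as other inhibitors or clearance receptors, 4 were lower and none was higher (limma, adjusted p under 0.05; none higher at an unadjusted p under 0.05 either), with a median log2 difference of -0.20. Of all genes tested, 19.8% were lower and 16.3% higher. The listed genes that fell were CST3, SERPINE2, THBS2 and LRP1. CST3 encodes cystatin C, an inhibitor of cysteine proteases rather than of metalloproteinases, and fell 1.76-fold from 921 to 524 FPKM. SERPINE2, an inhibitor of serine proteases that include urokinase, fell 1.19-fold. THBS2 binds MMP2 for uptake and LRP1 is the receptor of that uptake in mouse fibroblasts; they fell 1.44-fold and 1.30-fold. RECK, a membrane-anchored MMP inhibitor, stood at 4.30 and 4.34 FPKM and did not pass (limma, adjusted p = 0.879).

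Substrates were counted in the same way, beside 16.3% higher and 19.8% lower over all genes tested. Of 7 tested matrix substrates of ADAMTS proteases, 4 were lower and none higher, also at an unadjusted p under 0.05 (limma), and VCAN, the proteoglycan versican, fell 1.65-fold from 49.4 to 30.0 FPKM (limma, adjusted p = 3.62e-04). FBN1, which encodes fibrillin-1, fell 1.51-fold, and TFPI2 and LUM fell 1.25-fold and 1.44-fold. In the list of procollagen N-proteinase substrates and their processing partners, 5 of 9 genes were lower and 1 was higher, namely VEGFC, the lymphatic growth factor that ADAMTS3 helps to activate. The fibrillar collagen genes COL3A1, COL1A2, COL1A1 and COL5A1 fell 2.02-fold, 1.59-fold, 1.51-fold and 1.64-fold. Of 18 tested substrates of ADAM10 and ADAM17, 5 were higher and 2 lower. The EGF receptor ligand HBEGF rose 1.74-fold from 36.2 to 62.8 FPKM (limma, adjusted p = 1.57e-04), the Notch ligand JAG1 1.60-fold, the syndecan SDC4 1.39-fold and the prion protein gene PRNP 1.30-fold. The 2 lower genes, APP and NOTCH2, fell 1.22-fold and 1.31-fold (limma, adjusted p = 0.00693 and 0.0327). COL3A1, COL1A2 and COL1A1, and among the ADAMTS substrates LUM and DCN, are also in the fibroblast marker list, so these counts are not separate from it.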

How the data were processed

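RNA of 6 libraries was measured by sequencing. The authors deposited FPKM per gene in 1 table, whose 6 library columns carry the names in the labels. CASAVA and the build GRCg6a are named in the submitters' processing notes. An aligner, counter, strand setting or rule for multiple matches is not given in the sources used here, and the library kit named in the labels' protocols does not mark strand. FPKM times gene length was a whole multiple of 1 step in 100% of values (tolerance 0.01), which gave reads per library. Median-of-ratios factors of the deposited values were equal in all 6 libraries (1.00), so the values had already been scaled in that way or an equivalent one; 0 columns of values lacked a sample.

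Genes averaging 1 FPKM or more were fitted with limma 3.58.1 (R 4.3.3) on log2(FPKM + 1), group as the only term, eBayes with trend. Fold changes on this scale understate those of low genes; folds in the text are ratios of mean FPKM. No library pair agreed within sampling noise (chi-square per degree of freedom at least 2.53). Intervals are limma's and rest on the spread between libraries; the floor of 3 reads covers counting error only. The procedure was tested on simulated data with the same dispersion for all genes and few changed genes, none as low as the 1 FPKM limit. That test does not cover the lowest members. Members, lists and classes were chosen with earlier results of these data known. All members were named, with up to 4 genes of smallest adjusted p from each partner list; the other partner and marker genes were chosen after their values were seen. Chromosome names came from identifiers shared with NCBI's GRCg7b table (19717, or 80.7%, matched; 54 of the 55 members, of which 5 carry another symbol there). The alternatives were other pseudocounts, filters, scalings, a replicate block, library weights, a robust fit, voom on recovered reads (added after seeing the data) and leaving out each library.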

Additional observations from a re-analysis of the deposited data

How the results depend on the processing

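Of the 17 calls, 10 held in each of the 16 other settings in which the gene was tested: MMP9, ADAMTS1, ADAMTS15 and ADAMTS3 upward and MMP2, MMP7, MMP28, MMP23B, MMP16 and ADAMTS2 downward. The other 7 lost the call in at least 1 setting, always with the same sign: TIMP2, ADAMTSL2, MMP10, MMP11, MMP27, ADAMTS5 and ADAM19. The fit without a filter, which called 16.96% of all its genes, lost TIMP2, ADAMTSL2 and MMP10. Library weights also lost MMP10. Of the 16 settings, median-of-ratios scaling used the same factor for all libraries (1.00), so it nearly repeated the main fit and is not a separate check. A filter at a mean of 5 FPKM left 5 lower genes in place of 11, because 6 of the lower genes are under it; ADAMTS3, a higher gene, is too. Leaving out single libraries gave 4 to 6 higher and 7 to 10 lower members; without ANKRD9 replicate 2, which has the fewest reads, 7 were lower and the count of higher genes over the whole table was 1255 in place of 1900 (1255 to 1764 over the 6 fits). Over all genes tested, 24.3% to 33.5% were called in the fits without a single library, beside 36.0% in the main fit. The counts over partner lists stayed within 1.5 times of 19 higher and 20 lower. Voom on recovered reads called ADAMTS4 and MMP24 in addition and gave larger log2 falls for MMP27 (1.01 in place of 0.66), ADAMTS5 (0.43 in place of 0.27) and ADAM19 (0.48 in place of 0.30), since it adds less than 1 FPKM to low values. Run without scaling factors beyond library totals, voom called 2472 genes higher and 2268 lower over the whole table, in place of 1900 and 2310. A quasi-likelihood count test, planned for the case that the deposited file held counts, was not run, and voom on recovered reads took its place.

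The replicate block left 5 higher and 8 lower members, losing TIMP2, MMP10, ADAMTS5 and ADAM19. Over all genes tested, the share called also fell, from 36.0% in the main fit to 26.6% with the block. Same-numbered libraries did not deviate together (r = -0.196, 0.0336 and -0.0797), and pairs of other numbers ran from -0.105 to 0.160. Such deviations from the means of small groups cannot tell whether libraries of the same number share a culture or batch.

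Among members that did not pass, 8 changed sign in a setting, all close to 0 on the log2 scale. Leaving out single libraries gave -0.011 (without ANKRD9 replicate 3) to 0.18 for TIMP3, -0.012 (without pcDNA3.1 replicate 3) to 0.058 for ADAM8, with -0.0040 without ANKRD9 replicate 3, and -0.0079 (without pcDNA3.1 replicate 3) to 0.021 for MMP15. It gave -0.025 to 0.076 for ADAM17, -0.036 to 0.078 for ADAMTS7 and -0.047 to 0.075 for MMP1, each lowest without pcDNA3.1 replicate 3. ADAM10 ran from -0.071 to 0.018, above 0 without ANKRD9 replicate 1 (0.0099) and without pcDNA3.1 replicate 1, and stood at 0.00061 with library weights. ADAMTSL2L ran from -0.082 (without ANKRD9 replicate 1) to 0.074, with -0.0013 without pcDNA3.1 replicate 2, and stood at -0.0072 with quantile normalization and -0.025 with library weights. The cause was not tested. Low reads limit MMP1, MMP27 and ADAM19 most, with at most 95, 111 and 94 reads in a library.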

Other observations

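Genes of transcription factors known to act on metalloproteinase promoters were read from a list of AP-1, ETS and NF-kB factors that also held CEBPB, a C/EBP factor. Of 16 tested, 8 were higher and 3 lower with ANKRD9, with a median log2 difference of 0.19 (limma, adjusted p under 0.05). Over all genes tested, 16.3% were higher and 19.8% lower, with a median of -0.01. CEBPB was among the higher genes, at 708.1 FPKM with ANKRD9 and 590.4 FPKM in the controls. ATF3 rose 1.68-fold from 41.2 to 69.2 FPKM, the NF-kB subunits REL and NFKB2 rose 1.52-fold and 1.36-fold, and the ETS factor ETV1 fell 1.43-fold from 7.12 to 4.97 FPKM. JUN rose 1.11-fold, while FOS stood at 11.2 and 10.5 FPKM and did not pass (limma, adjusted p = 0.258). CEBPB, JUN, FOS, FOSL2 and ETV4 were named after their values were seen. The part of these factors in the results on metalloproteinases was not tested.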
